A study of Mus musculus with 6 samples.

Results

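The genes described here encode enzymes that write and remove histone lysine methylation and machines that slide, evict or exchange nucleosomes. They were chosen by symbol alone: every gene symbol in the count files beginning with Kdm, Setd or Arid and a digit, every Chd gene with a single digit, every Smarc gene, and the Kmt2 (also called Mll) and Ehmt genes. This gave 67 of the 32531 symbols in the files, made up of 7 H3K4 methyltransferases, 9 other SET-domain methyltransferases, 18 demethylases, 9 CHD remodellers, 7 Smarca ATPases, 7 other SWI/SNF subunits and 10 ARID proteins. A symbol says less than an activity, and some of the genes are known for other work: Setd3 encodes an actin histidine methyltransferase, and Smarcal1 an enzyme that remodels stalled replication forks. One member, Smarca5-ps, is a pseudogene.

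The study profiled cerebral cortex of adult Htr4-EGFP/Rpl10a mice of 1 line, ES1299, with no treatment. These mice make the ribosomal protein Rpl10a fused to EGFP under control of Htr4, a serotonin receptor gene, and both groups of libraries carry the transgene. RNA on tagged ribosomes was captured with antibodies to EGFP (translating ribosome affinity purification, here IP, 3 libraries) and compared with input RNA of the same tissue (3 libraries). The labels name no sex, no number of animals and no pooling, and do not say that replicates came from separate animals, so p-values measure only the spread between these libraries, which may be technical.

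Histone H3 methylated at lysine 4 marks promoters and enhancers, methylation at lysine 9 or 27 marks silent chromatin, and methylation at lysine 36 follows transcribing polymerase. SWI/SNF (in mammals BAF and PBAF), ISWI and CHD complexes use ATP to move nucleosomes. In adult neurons these genes remain expressed, and several, among them Kmt2d, Ehmt1, Chd7, Chd8 and Arid1b, are known as genes of human neurodevelopmental syndromes.

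Gene-assigned reads ranged from 37696125 to 52360452 in input and from 53147173 to 67559533 in IP, and the 67 genes took 0.543% to 0.585% in input and 0.543% to 0.581% in IP. A single other entry, AK140265, took 10.8% to 13.0% of these reads in input and 0.153% to 0.253% in IP. The shares of the 67 genes therefore rest on unlike totals. Htr4 itself, the check of the labels, lay at 7.65 to 8.17 CPM (counts scaled to a common library size) in input and 18.4 to 22.6 in IP, a log2 fold change of 1.34. Markers of glia and vessels were far lower in IP: all 8 astrocyte markers fell (summed level 358 to 368 CPM in input, 23.7 to 29.5 in IP), as did all 8 of oligodendrocytes (1349 to 1493 against 160 to 182 CPM), all 5 of their precursors (90.2 to 96.2 against 4.90 to 9.07 CPM), all 8 of microglia (50.6 to 59.7 against 2.22 to 4.85 CPM) and the 5 tested endothelial ones (3.87 to 9.35 against 0.0879 to 0.574 CPM over all 6, with Tek at 0 reads in every IP library). The 6 nuclear noncoding RNAs also fell, from 22182 to 30690 CPM summed in input to 419 to 729 CPM in IP. Of 8 pan-neuronal markers 6 rose and 1, Map2, fell (log2 -1.18, edgeR adjusted p = 7.9e-07). Of 6 excitatory markers 2 rose and 0 fell, and of 5 GABAergic ones 2 rose and 0 fell. With the length offset described below, the numbers that rose and fell were 4 and 1, 2 and 1, and 1 and 0. IP replicate 3 stood apart from IP replicates 1 and 2 on the second principal component (-66.5 against 36.0 and 31.2), so counts are also given without it.

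Of the 67 genes 65 had enough reads to be tested, and in the edgeR test 6 were higher and 19 lower in IP at an adjusted p under 0.05 (called, below), while 40 were not called. Across all 16506 tested genes 44.8% were called, 21.3% higher and 23.4% lower, so the share of the 65 genes called higher (9.23%) lay below that of all genes and the share called lower (29.2%) somewhat above it. Their median log2 fold change, IP over input, was -0.20, beside -0.02 for all tested genes, and their range ran from -1.51 to 0.92. Without IP replicate 3 the counts were 7 higher and 20 lower. Scaling to total counts in place of TMM gave 11 higher and 17 lower, but total counts make no allowance for the difference in AK140265. A second fit removed the trend of fold change with transcript length and GC content as an offset and gave 13 higher and 14 lower, beside 22.6% and 20.2% of all tested genes. Where this length offset ended a call or turned the direction of a called gene, its value is given beside the gene.

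All IP libraries lay above all input libraries for 10 of the 65 genes and below them for 24, beside 26.5% and 29.5% of all tested genes. Each of the 25 called genes kept its sign in each of the 3 sequencing lanes, every one of which held 1 input and 1 IP library. None of the 25 overlapped between groups, so the same sign in each lane had to follow and adds no support. Only 4 changes reached 2-fold, all lower in IP (Chd7, Kmt2d, Smarca1 and Arid3b), against 15.4% of all tested genes called lower by that much and 4.42% called higher. In bulk RNA, fewer cells of a type and less RNA per cell cannot be told apart. Markers of glia and nuclear noncoding RNA moved with the same contrast, in the amounts given above, and their part in the changes described next was not tested.

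**Figure D1:**
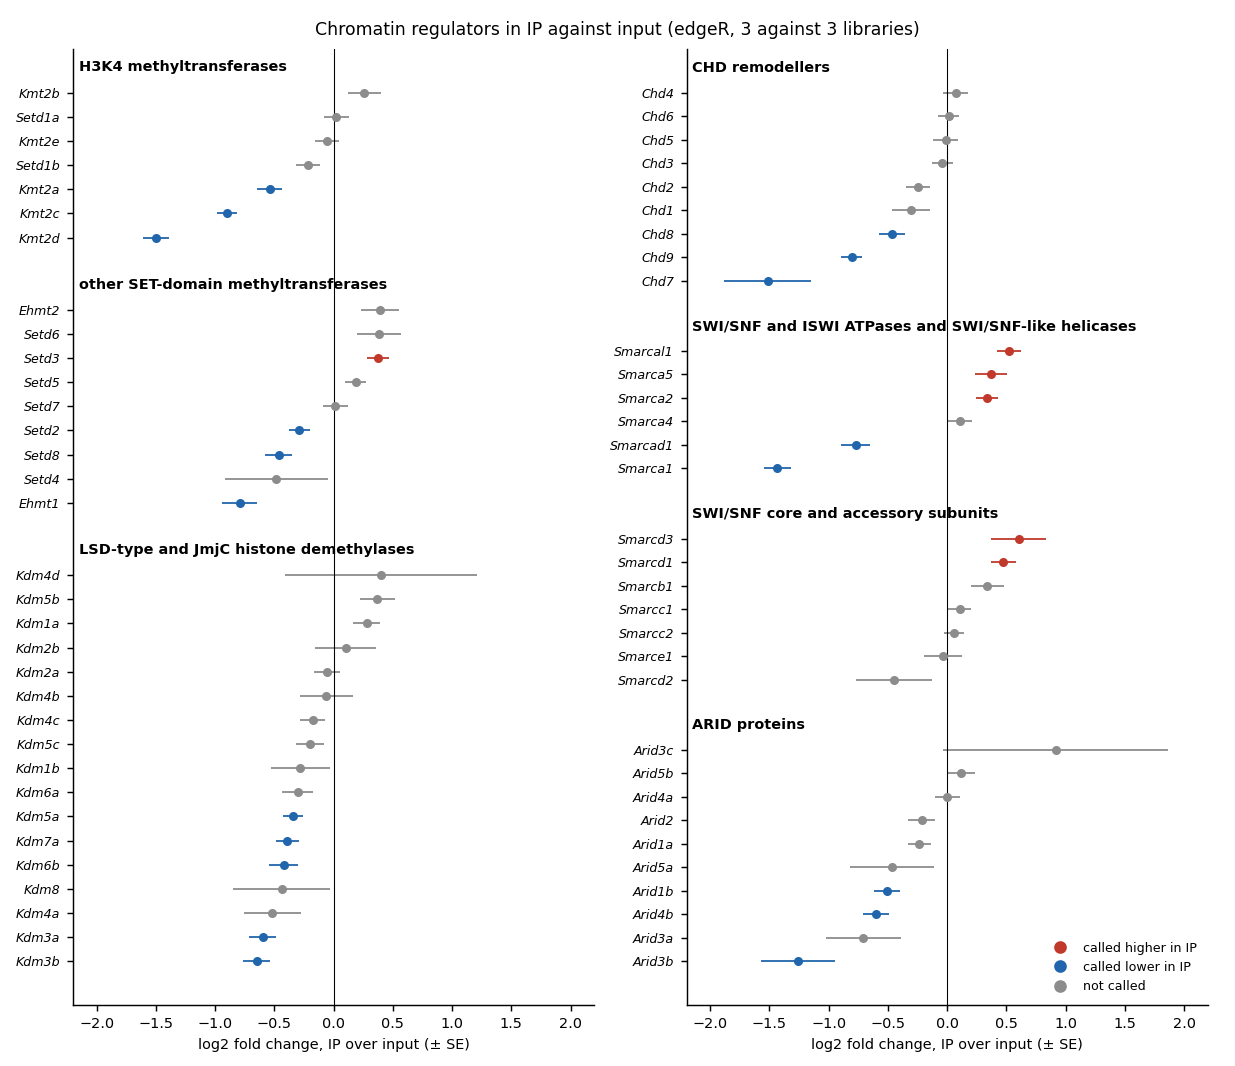
Log2 fold change of IP over input for the 65 tested genes, grouped by role. Points are edgeR estimates from 3 against 3 libraries, bars are ± 1 standard error, and colour gives the call. The estimates run from -1.51 (Chd7) to 0.92 (Arid3c, not called), and the red points, called higher, number 6 against 19 blue ones.

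The upstream sequence of 4 called genes is shown because the promoters of this set held more CpG than those of all tested genes, whichever way the gene moved. Each is 120 bases ending just before the RefSeq start, 5′ to 3′ on the gene's strand, from RefSeq's GRCm38.p6 promoters. Capitals mark the GC box GGGCGG or its reverse complement CCGCCC, searched on both strands with overlapping matches counted, a motif that Sp1-family factors bind. Kmt2d at chr15:98871206-98871325 (minus strand), Kmt2c at chr5:25498784-25498903 (minus strand) and Setd8 at chr5:124439810-124439929 (plus strand) belong to genes called lower, and Smarcal1 at chr1:72583131-72583250 (plus strand) to a gene called higher.
Kmt2d: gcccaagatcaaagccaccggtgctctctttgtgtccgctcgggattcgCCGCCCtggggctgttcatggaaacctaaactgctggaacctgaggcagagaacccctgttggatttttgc
Kmt2c: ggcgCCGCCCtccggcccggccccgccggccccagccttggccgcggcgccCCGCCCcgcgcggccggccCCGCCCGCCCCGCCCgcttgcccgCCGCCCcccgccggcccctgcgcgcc
Setd8: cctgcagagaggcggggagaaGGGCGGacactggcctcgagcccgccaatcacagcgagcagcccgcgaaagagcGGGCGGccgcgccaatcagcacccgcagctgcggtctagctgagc
Smarcal1: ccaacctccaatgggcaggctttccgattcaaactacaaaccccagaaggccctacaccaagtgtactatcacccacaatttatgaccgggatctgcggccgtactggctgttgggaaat

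In these 120 bases the box occurred 6 times in Kmt2c, 1 time in Kmt2d, 2 times in Setd8 and 0 times in Smarcal1. Of the 67 genes 50 matched a RefSeq promoter, and over the 250 bases before the start 36 of the 50 (72%) held a box, beside 57.7% of 11661 tested genes with a promoter and 33.0% of all 27025 promoters. The median number of CpG dinucleotides in that window was 20, beside 15 and 6. The box was present in 6 of 6 promoters of genes called higher, 13 of 15 called lower and 17 of 28 not called, so it did not separate the directions.

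The H3K4 methyltransferases included Kmt2d, the gene with the smallest adjusted p of the 65. Of the group 3 of 7 were lower in IP, none was higher, and the median log2 fold change was -0.21. Kmt2d and Kmt2c encode the large enzymes that place monomethyl H3K4 at enhancers, and Kmt2a encodes one that acts at promoters of developmental genes. Kmt2d (ENSMUSG00000048154.17; chromosome 15, 98831669 to 98871204 in GRCm38) lay at 166, 200 and 195 CPM in input replicates 1 to 3 and at 73.4, 64.6 and 60.3 CPM in IP. Every IP library held fewer than any input library by a wide margin, and the mean went from 187 ± 18.8 to 66.1 ± 6.68 CPM (SD, n = 3 each), a 2.83-fold lower level (log2 -1.50, SE 0.11, edgeR adjusted p = 1.4e-06). Kmt2c (chromosome 5, 25271798 to 25498783) lay at 199, 197 and 207 CPM in input and at 106, 113 and 103 CPM in IP. Its groups were tight and did not overlap (log2 -0.90, SE 0.09, adjusted p = 9.5e-06). Kmt2a fell by less, from 254, 307 and 328 CPM to 188, 205 and 217 CPM (log2 -0.54, adjusted p = 0.0015), and with the length offset its direction turned (log2 0.23, adjusted p = 0.025). With that offset the estimate of Kmt2c was -0.22 (adjusted p = 0.048) and that of Kmt2d -0.75 (adjusted p = 0.00037), and the group had 2 genes higher, 2 lower and a median of 0.07.

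The other 4 genes of this group were not called, with estimates on both sides of 0. Kmt2e, the highest of the 7 by mean CPM and a protein with a SET domain for which histone methylation is doubtful, lay at 272, 282 and 339 CPM in input and at 310, 274 and 273 CPM in IP, so its groups overlapped and the estimate was -0.06. Setd1a and Setd1b, the catalytic subunits of SET1/COMPASS, which places trimethyl H3K4 at promoters, had estimates of 0.02 and -0.21, and in the annotation 52.3% of Setd1a exon bases also belong to other genes. Kmt2b, the nearest relative of Kmt2a, lay at 17.7, 19.7 and 21.4 CPM in input and 22.2, 24.4 and 23.6 CPM in IP. Its IP values all lay above its input values, but the estimate of 0.26 was not called (adjusted p = 0.15).

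Among the other SET-domain methyltransferases 3 of 9 were lower and 1 was higher, with a median log2 fold change of 0.01. Ehmt1, which dimethylates H3K9 as a partner of Ehmt2, showed the largest change, from 23.8, 23.8 and 20.1 CPM in input to 13.8, 13.2 and 12.1 CPM in IP (log2 -0.79, SE 0.15, adjusted p = 0.0011). Ehmt2 lay at 24.9, 23.6 and 23.7 CPM in input and at 24.3, 37.2 and 33.1 CPM in IP, where replicate 1 sat inside the input range (log2 0.39, adjusted p = 0.064). The counts of these 2 genes, not corrected for length, were therefore near-equal in input and unequal in IP. Per kilobase of the longest annotated transcript, mean CPM was 3.79 in input and 2.19 in IP for Ehmt1, and 5.98 and 7.83 for Ehmt2. On that scale Ehmt2 was the higher in both groups. The log2 ratio of Ehmt1 to Ehmt2 was -0.10 ± 0.13 in input and -1.25 ± 0.38 in IP (SD, n = 3), without overlap. An exact two-sided permutation test gave p = 0.1, the smallest that 3 against 3 allows.

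Setd8 (named Kmt5a in newer annotation), which monomethylates H4K20, lay at 67.1, 72.7 and 78.9 CPM in input and at 52.4, 58.6 and 47.6 CPM in IP (log2 -0.46, adjusted p = 0.0055). Setd2, the enzyme for trimethyl H3K36, had 127, 131 and 128 CPM in input and 103, 111 and 101 CPM in IP. Its change was small but the groups did not overlap (log2 -0.29, adjusted p = 0.017), and the call was lost without IP replicate 3 (adjusted p = 0.056) and without any single input library (0.054 to 0.065), with total counts (0.093) and with the length offset (log2 0.02, adjusted p = 0.87). Setd3 was the only one to rise, from 66.7, 65.02 and 63.1 CPM to 88.3, 78.9 and 85.8 CPM (log2 0.38, SE 0.09, adjusted p = 0.0067). Setd7, a monomethyltransferase of H3K4 and of other proteins, had the highest mean CPM of the group, with 411, 468 and 455 CPM in input and 380, 488 and 478 CPM in IP, and its estimate was 0.01. Setd5 had IP values of 323 to 330 CPM, all above the input values of 264 to 319 CPM, without a call (log2 0.19, adjusted p = 0.11). Setd6, which methylates the NF-kB subunit RelA, had an estimate of 0.39 that was not called (adjusted p = 0.11) but was with the lane as a block (0.041) or without IP replicate 3 (log2 0.54, adjusted p = 0.025).

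Of the 17 tested demethylases 5 were lower and none higher, with a median of -0.28. The H3K9 demethylases Kdm3b and Kdm3a changed most. Kdm3b lay at 86.3, 91.5 and 104 CPM in input and at 57.2, 55.2 and 67.5 CPM in IP (log2 -0.65, SE 0.11, adjusted p = 0.00073), with 24.6% of its exon bases shared with a gene annotated on the opposite strand. Kdm3a had 36.8, 39.8 and 38.3 CPM in input and 25.3, 26.2 and 24.5 CPM in IP (log2 -0.60, adjusted p = 0.0013). Both therefore stood at a similar fraction of their input level (0.638 for Kdm3b and 0.661 for Kdm3a), and neither overlapped between groups.

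The other lowered demethylases act on different marks. Kdm7a, which removes methyl groups from H3K9 and H3K27 and had the highest mean CPM of the demethylases, lay at 156, 162 and 171 CPM in input and at 116, 139 and 118 CPM in IP (log2 -0.39, adjusted p = 0.0065; 0.06 and adjusted p = 0.61 with the length offset). The H3K27 demethylase Kdm6b, known for its induction by stimuli, fell by 0.42 on the log2 scale (adjusted p = 0.015), a call lost without input replicate 2 (0.080) or input replicate 3 (0.063) and with total counts (0.053). Its relative Kdm6a, on the X chromosome, had an estimate of -0.30 and was not called (adjusted p = 0.081). Kdm5a, an H3K4 demethylase, fell by 0.34 (97.7, 96.5 and 102 CPM against 75.8, 80.9 and 76.8 CPM, adjusted p = 0.0079), and with the length offset it stood at 0.13 (adjusted p = 0.24).

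Its paralog Kdm5b went the other way without a call in the fit by group: 44.1, 66.3 and 59.1 CPM in input against 62.9, 76.9 and 78.9 CPM in IP. In every lane the IP value was the higher, although the groups overlapped, and the log2 estimate of 0.37 had an adjusted p of 0.063, 0.0099 with the lane as a block, 0.025 with total counts and 0.0027 with the length offset. Kdm5c had an estimate of -0.20 and Kdm5d, its Y-linked relative, had 0 reads in all 6 libraries, where 3 reads would be 0.0444 to 0.0796 CPM. Uty, a Y-linked gene named after its values were seen, had 1 read in input replicate 2 and 0 in the other libraries. The X-linked noncoding RNA Xist lay at 29.0, 27.1 and 22.7 CPM in input. The sex of the animals is not in the labels and was not tested. Kdm1a (LSD1), the first histone demethylase to be described, lay at 51.1, 47.5 and 47.6 CPM in input and at 59.0, 65.2 and 52.9 CPM in IP. All IP values were above the input values and the estimate of 0.28 was not called (adjusted p = 0.060). The H3K36 demethylases Kdm2a and Kdm2b (-0.05 and 0.10) and the Kdm4 genes for H3K9 and H3K36 (-0.52 for Kdm4a, -0.06 for Kdm4b, -0.18 for Kdm4c and 0.40 for Kdm4d) were not called, nor were Kdm1b (-0.28) and Kdm8 (-0.44). Kdm4d was low, at 0.219 to 2.53 CPM.

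**Figure D2:**
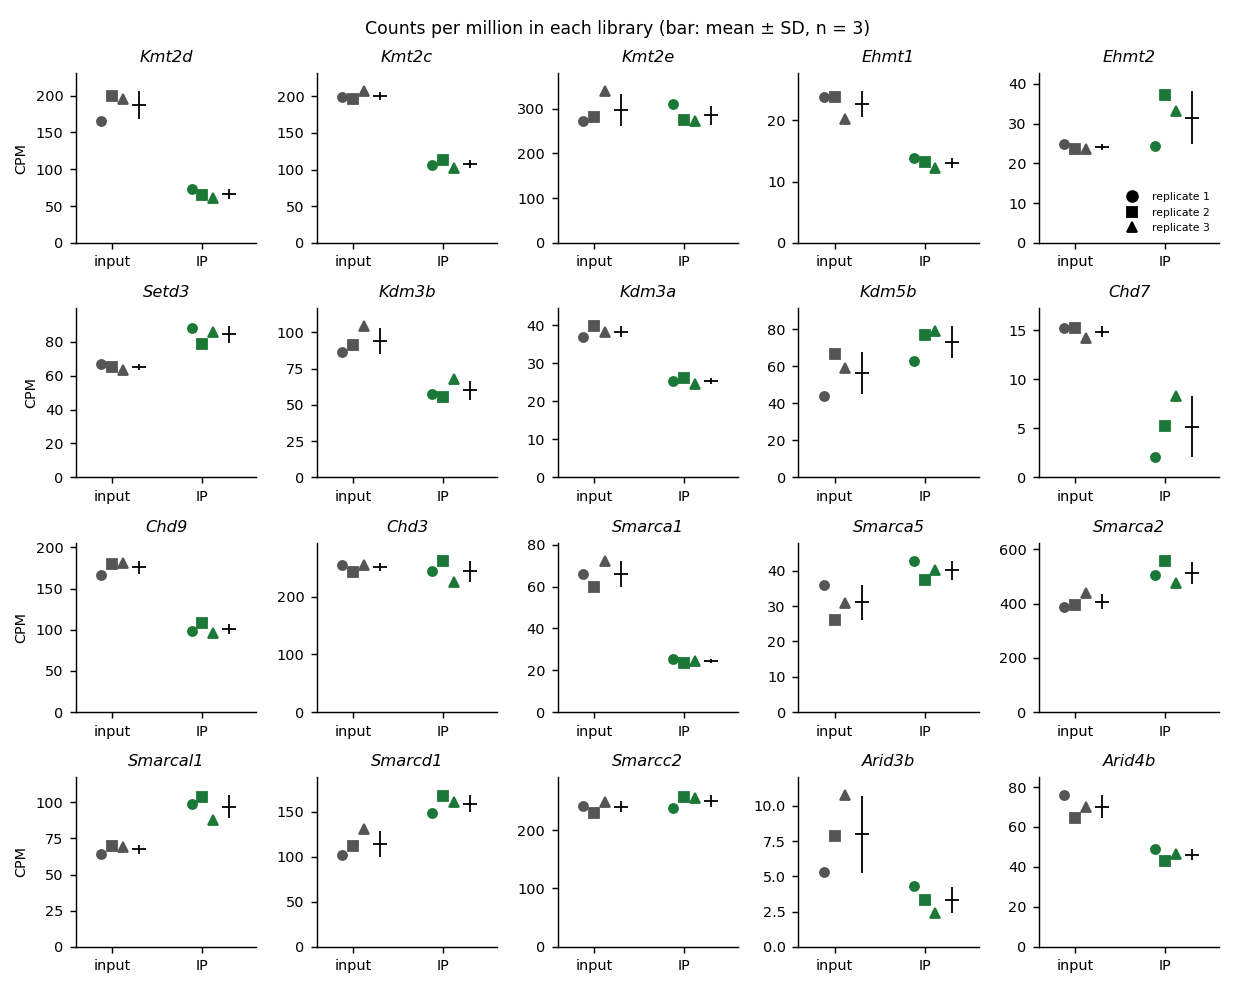
CPM in each library for 20 of the genes, with input in grey and IP in green, symbols giving the replicate number, and a bar for the mean ± SD (n = 3). Each panel has its own axis starting at 0. Kmt2d, Chd9 and Smarca1 separate fully, Kmt2e, Chd3 and Smarcc2 overlap, and the 3 IP values of Chd7 spread from 2.04 to 8.29 CPM.

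Among the CHD remodellers 3 of 9 were lower and none higher, with a median of -0.25, and the calls fell within the Chd6 to Chd9 subfamily. Chd7, which binds enhancers and is mutated in CHARGE syndrome, lay at 15.2, 15.2 and 14.2 CPM in input and at 2.04, 5.20 and 8.29 CPM in IP. The input values were nearly identical while the IP values differed up to several fold between replicates, yet none reached the input range (log2 -1.51, SE 0.37, adjusted p = 0.0057). Without IP replicate 3 the estimate was -2.02, and without IP replicate 1 it was -1.13, both still called. Chd9 (chromosome 8, 90828352 to 91054516) went from 167, 179 and 182 CPM to 98.5, 108 and 95.6 CPM (log2 -0.81, SE 0.09, adjusted p = 3.1e-05). Chd8, a regulator of Wnt targets and a leading autism gene, went from 66.3, 71.5 and 71.0 CPM to 47.5, 57.5 and 46.3 CPM (log2 -0.47, adjusted p = 0.0052; -0.14 and adjusted p = 0.27 with the length offset). Chd6, the remaining gene of the subfamily, had nearly equal values, 98.4, 101 and 104 CPM in input and 102, 97.0 and 107 CPM in IP (log2 0.01).

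The NuRD helicases also had nearly equal means. Chd3, the CHD gene with the highest mean CPM, had 255, 243 and 255 CPM in input and 245, 263 and 226 CPM in IP (log2 -0.04), Chd4 an estimate of 0.07 and the neuronal Chd5 one of -0.01. Standard errors of 0.09 to 0.11 accompany these estimates. Chd1 and Chd2, which follow active transcription, had estimates of -0.31 and -0.25 with overlapping groups, not called (adjusted p = 0.14 and 0.071) but called lower with the lane as a block (0.041 and 0.044). Chd2 was also called lower by DESeq2 (0.036), with RLE factors (0.0495), when genes needed 1 CPM in 3 libraries to be tested (0.033) and without IP replicate 3 (0.047), and with the length offset its estimate was 0.12 and not called. In the annotation 19.3% of Chd2 exon bases are shared with other genes.

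The Smarca ATPases moved in both directions. Of 6 tested, 3 were higher and 2 lower, with a median of 0.22. The ISWI ATPases were opposite: Smarca1 (SNF2L; X chromosome, 47809368 to 47892974) lay at 65.9, 59.6 and 72.4 CPM in input and at 25.2, 23.5 and 24.6 CPM in IP. The IP values were very close to each other and stood at 0.370 of input (log2 -1.43, SE 0.11, adjusted p = 2.7e-06). Smarca5 (SNF2H) lay at 36.1, 26.1 and 31.0 CPM in input and at 42.8, 37.3 and 40.2 CPM in IP (log2 0.37, adjusted p = 0.046). That call was lost without either of IP replicates 1 and 3 or of input replicates 2 and 3 (adjusted p 0.071 to 0.21, with an estimate of 0.25 without input replicate 2), and with RLE factors (0.061) or with the filter of 1 CPM in 3 libraries (0.073). Input thus held more Smarca1 than Smarca5 reads in every library, and IP the reverse. The log2 ratio went from 1.09 ± 0.20 to -0.71 ± 0.05 (SD, n = 3; exact permutation p = 0.1, the smallest possible). The pseudogene Smarca5-ps had at most 4 reads in a library and was not tested.

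The SWI/SNF ATPase Smarca2 (BRM) was among the genes of highest mean CPM, with 389, 395 and 439 CPM in input and 507, 558 and 477 CPM in IP. All IP libraries were above all inputs (log2 0.34, adjusted p = 0.0092), a call lost without input replicate 2 (0.059) and with the length offset (0.082). Its alternative Smarca4 (BRG1) had 80.3, 86.7 and 78.6 CPM in input and 76.1, 96.2 and 91.7 CPM in IP, with overlap (log2 0.11). Smarcal1 showed the largest rise among the ATPases, from 64.1, 69.4 and 68.9 CPM to 99.1, 103 and 87.9 CPM (log2 0.52, SE 0.10, adjusted p = 0.0012). Smarcad1, a helicase linked to heterochromatin upkeep, fell from 34.2, 34.9 and 34.6 CPM to 21.8, 19.998 and 18.9 CPM (log2 -0.77, adjusted p = 0.00038).

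The SWI/SNF core and accessory subunits had 2 of 7 higher and none lower, with a median of 0.10. Smarcd1 (BAF60a) lay at 101, 112 and 130 CPM in input and at 149, 167 and 161 CPM in IP, with no overlap (log2 0.47, SE 0.11, adjusted p = 0.0035). Smarcd3 (BAF60c) was barely called: it lay at 7.46, 6.86 and 5.55 CPM in input and at 13.0, 8.92 and 8.23 CPM in IP (log2 0.60, adjusted p = 0.04999), and the estimate was 0.38 without IP replicate 1 (adjusted p = 0.20). It also lost its call without any single input library (0.061 to 0.16) and with DESeq2 (0.053), limma-voom (0.062), RLE factors (0.059) the stricter filter on low counts (0.064) or the length offset (log2 0.24, adjusted p = 0.42), and 48.2% of its exon bases are shared with genes on the opposite strand, against 12.7% for Smarcd1. Smarcd2 (BAF60b), the third of these paralogs, lay at only 3.89 to 4.95 CPM in input and 2.26 to 4.49 CPM in IP and was not called (log2 -0.45).

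The scaffold subunit Smarcc2 (BAF170) had the highest mean CPM, with 241, 230 and 248 CPM in input and 238, 256 and 254 CPM in IP (log2 0.06). Its partner Smarcc1 (BAF155) had an estimate of 0.10, the DNA-binding Smarce1 (BAF57) one of -0.03, and Smarcb1 (SNF5) one of 0.34 with all IP values above input but no call (adjusted p = 0.071). Standard errors were 0.08 for Smarcc2, 0.10 for Smarcc1 and 0.16 for Smarce1, and none of the 4 was called.

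The ARID proteins, some of which are DNA-binding subunits of larger complexes, had 3 of 10 lower and none higher, with a median of -0.35. Arid3b, a DNA-binding factor, went from 5.31, 7.85 and 10.7 CPM in input to 4.29, 3.31 and 2.40 CPM in IP. It was low and scattered in input, the groups came close without overlap (log2 -1.26, SE 0.31, adjusted p = 0.0062), and without input replicate 3 the call was lost (log2 -0.97, adjusted p = 0.052). Arid4b, a subunit of the Sin3 histone deacetylase complex, went from 75.8, 64.3 and 69.98 CPM to 48.7, 43.1 and 46.7 CPM (log2 -0.60, SE 0.11, adjusted p = 0.00081). Its paralog Arid4a overlapped between groups, at 109 to 136 CPM in input and 118 to 133 CPM in IP.

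Of the BAF subunits in this group, Arid1b fell from 77.3, 64.6 and 75.9 CPM to 48.2, 52.1 and 52.8 CPM (log2 -0.51, adjusted p = 0.0023). Arid1a, its mutually exclusive alternative and the ARID gene of highest mean CPM, lay at 173, 192 and 192 CPM in input and at 153, 174 and 147 CPM in IP. The highest IP value exceeded the lowest input value, and the estimate of -0.23 was not called (adjusted p = 0.063) but was with the lane as a block (0.040), by DESeq2 (0.028), with RLE factors (0.045), with the filter of 1 CPM in 3 libraries (0.027) and without IP replicate 2 (0.027). Arid3a had an estimate of -0.71 that was not called (adjusted p = 0.089) but was with the block (0.023) and without IP replicate 3 (log2 -1.02, adjusted p = 0.021). Arid2, the subunit that defines PBAF, had -0.22, and Arid5a and Arid5b had -0.46 and 0.12, none called. Arid3c, which has the highest estimate of the 65 genes (0.92), had 0.0817 to 0.717 CPM and an SE of 0.95.

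Close relatives within the set were also compared by the log2 ratio of their CPM in each library. The 14 pairs were chosen with the fold changes known, so the values are descriptive. The ratios of 7 pairs did not overlap between groups (exact permutation p = 0.1 each, 0.2 after Benjamini-Hochberg adjustment over the 14, so no pair passed). How often other gene pairs separate was not tested. Among all single tested genes, 26.5% lay fully above input in IP and 29.5% fully below. Besides Ehmt1 to Ehmt2 and Smarca1 to Smarca5, these were Kmt2a to Kmt2b (3.91 ± 0.06 in input, 3.12 ± 0.07 in IP), Kmt2c to Kmt2d (0.11 ± 0.14, 0.70 ± 0.15), Kdm5a to Kdm5b (0.83 ± 0.30, 0.10 ± 0.16), Chd6 to Chd9 (-0.80 ± 0.04, 0.02 ± 0.16) and Arid4a to Arid4b (0.81 ± 0.13, 1.42 ± 0.06). The ratios of the other 7 pairs overlapped, among them Kdm3a to Kdm3b (-1.29 ± 0.13, -1.24 ± 0.20) and Smarcc1 to Smarcc2 (-0.71 ± 0.18, -0.65 ± 0.05). None of these ratios allowed for transcript length. With the length offset the log2 fold changes were 0.23 for Kmt2a and 0.40 for Kmt2b, and -0.22 for Kmt2c and -0.75 for Kmt2d. They were 0.13 for Kdm5a and 0.62 for Kdm5b, 0.46 for Chd6 and -0.31 for Chd9. For Arid4a and Arid4b they were 0.13 and -0.41, and for Ehmt1 and Ehmt2 -0.71 and 0.27. Whether the ratios separate with the offset was not tested.

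Between genes, levels can be compared only per transcript length. On the scale of mean CPM per kilobase of the longest annotated transcript, Smarca2 stood highest of the set in both groups (68.8 in input, 86.8 in IP), followed by Setd7 (59.97 and 60.6), Smarcc2 (52.5 and 54.6), Setd5 (42.7 and 48.5) and Kmt2e (40.6 and 39.0). Kmt2d, with high raw CPM, came to 9.44 in input and 3.34 in IP on this scale, and Chd7 to 1.45 and 0.507.

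Many of these genes are long, and length moved with the fold change across the whole table. Of the 65 tested genes 52 had a median annotated transcript longer than the median of all tested genes, 2717 nt, and their own median was 4998 nt. Across genes, which are not independent replicates, Spearman's rho between log2 fold change and transcript length was -0.29 for the 65 genes and -0.24 for all 14955 tested genes with a length. Among transcripts of 8000 to 12000 nt 7 of 12 genes of the set were called lower, beside 48.5% of all genes of that length, with medians of -0.32 and -0.36. All 3 genes of at least 12000 nt, Kmt2a, Kmt2c and Kmt2d, were called lower, as were 68.9% of all genes of that length, with medians of -0.90 and -0.72. Between 6000 and 8000 nt the set had 1 of 12 lower against 35.6% of all genes, and a median of 0.02 against -0.23. Below 2000 nt the medians were 0.34 (8 genes) and 0.29, and between 2000 and 4000 nt 0.33 (10 genes) and 0.03. Between 4000 and 6000 nt, the class with most of the set (20 genes), the medians were -0.25 and -0.11.

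**Figure D3:**
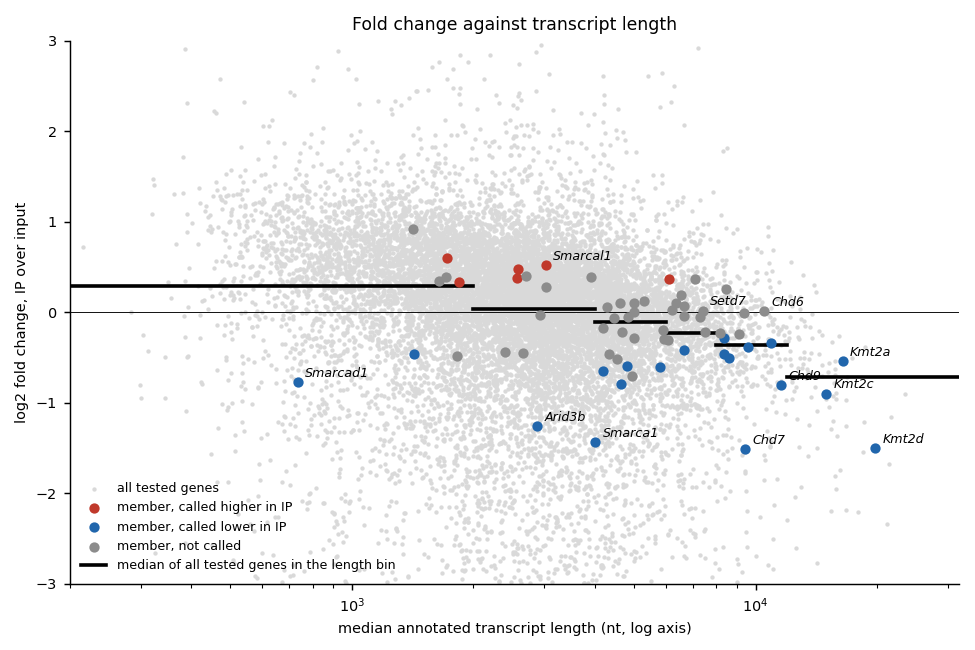
Log2 fold change of IP over input against the median annotated transcript length (log axis, nt). Small grey points are all tested genes with a length (792 of 14955 lie outside the plotted range), large points are the genes of the set coloured by call, and black bars are the medians of all tested genes in 6 length classes. The bars descend from 0.29 below 2000 nt to -0.72 from 12000 nt, and Kmt2d, Chd7 and Smarca1 lie below the bar of their class.

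With the length offset, which takes out a smooth trend of log2 fold change in length and GC content, the 13 higher and 14 lower genes of the set came with a median of 0.05, beside 0.02 for all genes. By role the medians became 0.07 for H3K4 methyltransferases, 0.13 for other SET-domain genes, -0.10 for demethylases, 0.06 for CHD genes, 0.20 for Smarca ATPases, 0.06 for SWI/SNF core subunits and -0.25 for ARID genes, so that of the H3K4 methyltransferases and of the CHD genes changed sign. All 14 genes lower with the offset were lower without it, and 4 of the 6 higher genes stayed higher. Chd9 stood at -0.31 with it, Chd7 at -1.19 and Smarca1 at -1.29. Setd8 and Smarcad1, whose median transcripts are short, had larger decreases with it (-0.78 and -1.01), but with the longest transcript as the measure of length Smarcad1 stood at -0.69, a smaller decrease than without an offset, and Setd8 at -0.54. Kmt2a changed sides, though with the longest transcript as the measure of length it was 0.097 and not called (adjusted p = 0.34).

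A further 4 genes lost their lower call with the offset (Chd8, Kdm5a, Kdm7a and Setd2, with estimates from -0.14 to 0.13), and Smarca2 and Smarcd3 lost their higher one (0.21 and 0.24). Smarca2 depends on the length used: its median transcript is 1844 nt and its longest 5921 nt, and with the longest it was higher at 0.48 (adjusted p = 0.00028). The offset also made 8 genes higher that were not called without it: Chd4, Chd6, Kdm1a, Kdm5b, Kmt2b, Setd5, Setd7 and Smarcc1. The largest of these estimates was that of Kdm5b (0.62, adjusted p = 0.0027), and the smallest adjusted p that of Setd5 (0.00088, log2 0.41). Chd6, with the longest transcript of the 8 (10515 nt), stood at 0.46 (adjusted p = 0.0013). Whether long transcripts are captured or counted differently in IP was not tested, so both fits are given.

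**Figure D4:**
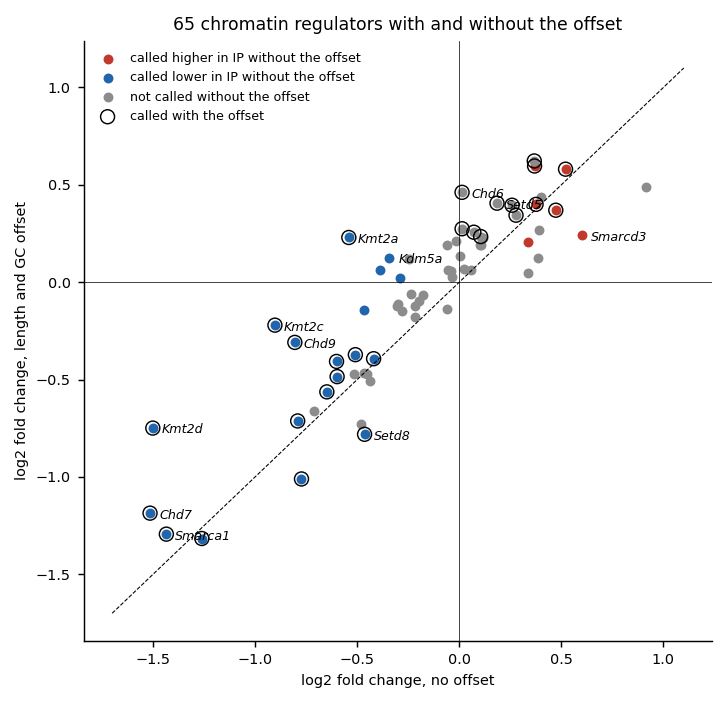
Log2 fold change of IP over input of the 65 genes without (horizontal) and with (vertical) the length and GC offset; the dashed line marks equality. Colour gives the call without the offset and a ring a call with it. The long genes Kmt2d, Kmt2c and Kmt2a lie far above the line, and Kmt2a crosses from -0.54 to 0.23.

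Other chromatin genes outside the set, in 10 lists of complexes and enzymes, were read from the same fit without the offset. Of 118 tested genes 30 (25.4%) were higher and 26 (22.03%) lower in IP, with a median of 0.06. These shares lay near the 21.3% higher and 23.4% lower of all tested genes. The length offset gave 32 higher and 23 lower of the 118, beside 22.6% and 20.2% of all tested genes. Counts for each list below should be read beside these shares of all genes. Whether any list differs from all genes was not tested. The cofactors of the H3K4 methyltransferases (COMPASS) had 7 of 12 higher and 2 lower, with a list median of 0.38. Dpy30, a core subunit, rose from 17.5 ± 1.76 to 37.9 ± 3.83 CPM (SD, n = 3; log2 1.115, adjusted p = 6.4e-05), and the large coactivator Ncoa6 fell by 0.52 on the log2 scale. With the length offset the list had 7 higher and 1 lower with a median of 0.34, beside 0.07 for the H3K4 methyltransferases, so the medians of enzymes and cofactors had opposite signs (-0.21 and 0.38) only without the offset. The difference between them was not tested.

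Genes of DNA methylation had 5 of 11 lower and none higher, with a median of -0.59. All 3 Tet genes, which oxidise methylcytosine, fell, Tet1 the most, from 70.2 ± 1.08 to 24.8 ± 1.14 CPM (log2 -1.50, adjusted p = 9.4e-07), and Dnmt3a and Mbd6 were the other 2. With the length offset 5 were lower and 2 higher, Dnmt1 (log2 0.34, adjusted p = 0.037) and Mbd5 (0.29, adjusted p = 0.0068), both named after their values were seen, and Tet1 stood at -0.86. In Polycomb repressive complex 2, which methylates H3K27, 3 of 11 were higher and 2 lower. Its catalytic subunits differed: Ezh2 fell from 9.48 ± 1.09 to 1.73 ± 0.214 CPM (log2 -2.45, adjusted p = 1.4e-05), and Ezh1, named here after its values were seen, rose from 59.1 ± 4.43 to 72.5 ± 3.77 CPM (log2 0.30, adjusted p = 0.033). Eed, their shared partner, rose by 0.77 on the log2 scale.

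The remaining BAF and PBAF subunits had 5 of 16 higher (largest Bcl7b, log2 0.89) and 3 lower (largest Ss18, -1.07). NuRD partners of Chd3, Chd4 and Chd5 had 1 of 10 higher, the deacetylase Hdac2 (0.34), and none lower. ISWI partners had 1 of 9 higher (Pole3, 1.07) and 2 lower (largest Rsf1, -0.93), and INO80 and SRCAP genes 4 of 16 higher (largest Znhit1, 1.09) and 3 lower (largest Ino80d, -0.67). With the length offset the INO80 and SRCAP list had 2 higher and 1 lower, and Ino80d stood at -0.06 and was not called (adjusted p = 0.56). Of 15 other histone lysine methyltransferases 3 were higher (largest Smyd5, 0.81) and 4 lower (largest the H3K79 enzyme Dot1l, -1.38). Of 8 demethylases and related genes under other symbols 2 were higher (largest Jmjd8, 0.71) and 2 lower (largest Hspbap1, -0.67). Whether each gene of this list acts on histones was not tested. Of 10 acetyltransferases 4 were higher (largest Kat5, 0.66) and 3 lower (largest Kat2b, -1.21). With the length offset the higher and lower counts were 5 and 4 for the BAF and PBAF subunits, 3 and 2 for ISWI partners and 3 and 5 for the other methyltransferases. They were 2 and 1 for the demethylases and related genes and 4 and 2 for the acetyltransferases, and as without it for NuRD and Polycomb repressive complex 2. Equal counts need not mean the same genes. In the Polycomb list Phf1 lost its higher call with the offset (adjusted p = 0.12) and Suz12 gained one (log2 0.33, adjusted p = 0.044). Both were named after their values were seen.

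**Figure D5:**
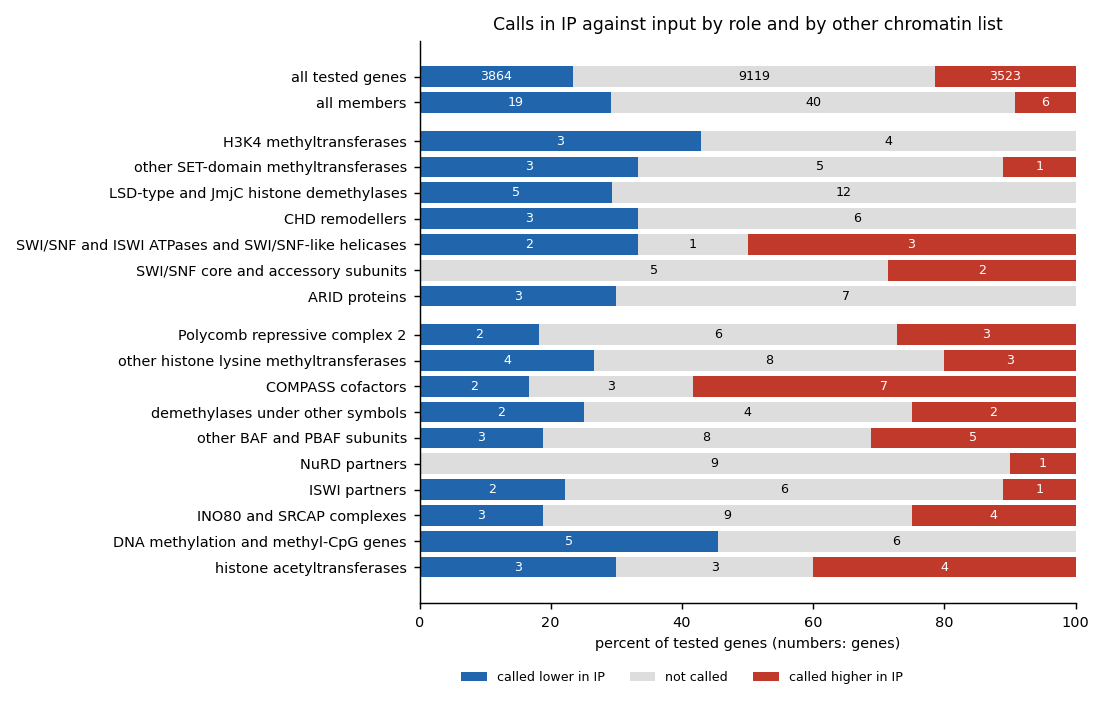
Percent of tested genes called lower (blue), not called (grey) and called higher (red) in IP, for all tested genes, the whole set, its 7 roles and the 10 other chromatin lists. Numbers in the bars are genes. The COMPASS cofactors show 7 of 12 higher, the H3K4 methyltransferases 3 of 7 lower, and the DNA methylation genes 5 of 11 lower.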

How the data were processed

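Cortex RNA of 3 input and 3 IP libraries was measured, grouped by their titles. The authors deposited raw read counts per gene symbol, not normalized. The submitters' processing notes name STAR 2.0.0e, HTSeq and the build mm10. The version, strand setting and annotation of HTSeq were not found (not given in the sources used here), so reads of overlapping genes on opposite strands cannot be told apart. Library sizes and tests use gene entries only. Of all entries of a library, reads outside genes made up 16.7% to 18.1% of input and 8.60% to 8.92% of IP, reads matching several genes 8.12% to 9.83% and 1.77% to 1.91%, and reads aligned to several places 21.1% to 23.3% and 32.9% to 35.7%. Chi-square per degree of freedom between replicates ran from 22 to 65.2, so no library was a copy.

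The counts were tested by quasi-likelihood in edgeR 4.0.16 under R 4.3.3 (TMM scaling, filterByExpr, group term alone, two-sided), with Benjamini-Hochberg adjustment over all 16506 tested genes and a threshold of 0.05. CPM uses TMM-scaled library sizes. On simulated data for this comparison (16506 genes, 200 changed 2-fold) edgeR recovered 77.5% of the changed genes and 8.28% of its calls were false. The changed genes were not low in reads, went in both directions and had no length trend, while 44.8% of genes were called in the data. These rates therefore need not hold for the real comparison or for genes low in reads. Lengths, GC content, coordinates and exon sharing come from GENCODE M21 (GRCm38, the assembly of mm10), in which all 67 genes were found, 1 of them (Setd8) under another symbol. Length is the median over a gene's basic transcripts, and the offset is a robust spline of 4 degrees of freedom in log2 length and GC content.

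Replicate numbers equal the sequencing lane in the labels. Deviations from group means correlated at 0.0872, 0.0608 and 0.0431 between same-numbered libraries and at -0.0566 to 0.00144 between others, so a fit with the lane as block is given where it changes a call. The library index differs between input and IP and is constant within each, so its part cannot be told apart from the group's. Values in all libraries are given, by rule, for the called genes of each role with the largest changes and the one with the highest mean CPM, and for others chosen after their values were seen. From each other list the gene with the largest called change in each direction is named. The gene set and all lists were chosen with earlier results of these data known. Alternatives were DESeq2 1.42.0, limma-voom (limma 3.58.1), RLE factors, total counts, other filters, the block, the offset, leaving out each library, and, chosen after seeing the data, an offset on the longest transcript.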

Additional observations from a re-analysis of the deposited data

How the results depend on the processing

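Of the 25 called genes 15 kept their call and direction in all 16 alternatives: Arid1b, Arid4b, Chd7, Chd9, Ehmt1, Kdm3a, Kdm3b, Kmt2c, Kmt2d, Setd8, Smarca1 and Smarcad1 lower, and Setd3, Smarcal1 and Smarcd1 higher. Of 1039 single-gene values under the alternatives 884 kept side and direction and 65 changed sign, with or without a change of call. Of those that kept their sign, 33 lost a call and 57 gained one. The replicate block (8 higher, 23 lower) added the 6 calls given above and changed no other call; the numbers share a lane, and no pair correlated above 0.1. Leaving out 1 library gave 4 to 7 genes higher, 16 to 21 lower and medians of -0.21 to -0.14 (lowest in size without input replicate 3). The number called higher was 13 with the length and GC offset, 15 with offset and block, 12 with the longest-transcript offset and 11 with total counts. The median of the set was 0.048 with the offset, 0.0496 with offset and block, 0.0031 with the longest-transcript offset, -0.11 with total counts and -0.25 with at least 1 CPM in 3 libraries. The median of the other chromatin lists was 0.037 with DESeq2 and with RLE factors, 0.019 with the CPM filter, 0.042 with the offset, with and without the block, 0.079 without a filter, 0.15 with total counts, and 0.052 to 0.098 leaving out 1 library. The offset removes a trend with length by construction; the cause of the other shifts was not tested.

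The values that changed sign were mostly of genes not called, with Kmt2a, Kdm5a, Kdm7a and Setd2 as the called exceptions. With DESeq2 and RLE factors Arid4a came to -0.021, Chd6 to -0.010 and Setd7 to -0.0097. With the CPM filter Arid4a was -0.046, Chd6 -0.035, Setd1a -0.024 and Setd7 -0.035. With the offset, Chd2 was 0.12, Chd3 0.059, Chd5 0.21, Kdm2a 0.063, Kdm5a 0.13, Kdm7a 0.063, Kmt2a 0.23, Kmt2e 0.19, Setd2 0.019 and Smarce1 0.027. With the block added, Chd3 was 0.057, Kdm2a 0.061, Kdm7a 0.058, Setd2 0.021 and Smarce1 0.036, and the other 5 were the same to 2 decimals. With the longest-transcript offset Arid2 was 0.0078, Chd2 0.037, Chd3 0.041, Chd5 0.15, Kdm2a 0.19, Kdm5a 0.035, Kmt2a 0.097 and Kmt2e 0.13. Without a filter Chd5 was 0.0048. With total counts Chd3 was 0.055, Chd5 0.078, Kdm2a 0.041, Kdm4b 0.029, Kmt2e 0.040 and Smarce1 0.059. Leaving out 1 library, estimates ran from -0.091 to 0.095 for Arid4a, -0.089 to 0.021 for Chd3, -0.086 to 0.081 for Chd5, -0.013 to 0.052 for Chd6, -0.14 to 0.029 for Kdm2a, -0.0074 to 0.32 for Kdm2b, -0.21 to 0.073 for Kdm4b, -0.33 to 1.503 for Kdm4d, -0.11 to 0.060 for Kmt2e, -0.046 to 0.13 for Setd7 and -0.13 to 0.12 for Smarce1. The SEs of Arid3c, Kdm4d, Kdm8 and Setd4, all low in reads, exceed 0.40.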

Other observations

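Kdm4d, an H3K9 demethylase gene best known from testis, differed more by lane than by group. It had 81, 11 and 38 reads (2.21, 0.219 and 0.778 CPM) in input replicates 1 to 3 and 141, 32 and 83 reads (2.53, 0.459 and 1.22 CPM) in IP replicates 1 to 3, so lane 1 was highest and lane 2 lowest in both groups. The gene was picked after its values were seen and is low in reads (log2 fold change 0.40, SE 0.81). How many other genes keep the same order in both groups was not tested. Lane equals replicate number, so it cannot be told apart from anything else that same-numbered libraries share.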
